A study of Homo sapiens with 12 samples.

Results

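The integrated stress response gene ATF4 and 9 genes commonly used as readouts of it (ATF3, ATF5, CEBPB, DDIT3, TRIB3, PPP1R15A, CHAC1, ASNS and PCK2) were followed in MIA PaCa-2, an established cell line from a human pancreatic cancer, labelled wild type. The 10 genes were taken by symbol from the 15090 genes that have values, and all 10 were found. All 4 groups were cultured in RPMI 1640 medium made without glutamine, to which L-glutamine was returned at 2 or 40 mM, and were sampled at 48 h. At each glutamine level 1 group received no gemcitabine, a nucleoside analogue used against pancreatic cancer, and 1 received 0.5 µM. Each group had 3 libraries of total RNA, called biological replicates in the series design, so n = 3 throughout, and below "treated" means treated with gemcitabine. No group lacked glutamine, and a single cell line limits the model. The study's title sets the comparison in the context of high-dose glutamine, amino acid transport and sensitivity to chemotherapy.

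In the integrated stress response, the kinases GCN2, PERK, PKR and HRI, which sense amino acid shortage, unfolded protein in the endoplasmic reticulum, double-stranded RNA and haem shortage or mitochondrial stress, phosphorylate the translation factor eIF2-alpha. General translation then falls, while the ATF4 mRNA is translated more efficiently. ATF4 protein pairs with other leucine zipper factors and switches on genes for amino acid synthesis and uptake, tRNA charging, growth arrest and feedback. Because ATF4 is controlled largely at translation, its mRNA level does not report its protein, which was not measured here.

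The libraries held between 21723094 and 32811746 reads over the listed genes. Scaling factors between libraries, recovered from the values, ranged from 0.9794 to 1.0292. On principal components over the 12789 tested genes, the first (40.1% of the variance) separated treated from untreated libraries and the second (18.8%) separated the glutamine levels, and no library stood with another group. Of the markers of an epithelial line, KRT8, KRT18 and KRT19 were present, with a sum of 3033 to 3180 reads per 1000000 (RPM) without and 4134 to 4188 RPM with drug at 2 mM, and of 2388 to 2490 RPM without and 2909 to 2981 RPM with drug at 40 mM. KRT8 and KRT18 were each higher with drug at both levels. KRT19 had a lower mean with drug, 276.5 against 286.3 RPM at 2 mM and 202.1 against 231 RPM at 40 mM. EPCAM and KRT7 had no values among the listed genes. Among markers of other cells, CDH5 (endothelial) and CD14 (leukocyte) stayed under 1 RPM. Of 5 fibroblast markers, 2 had values, COL1A1 near 1 RPM and COL1A2 at a group mean of 757 RPM in untreated cells at 2 mM, and their sum was 747 to 769 RPM without and 583 to 631 RPM with drug at 2 mM, and 869 to 898 RPM without and 652 to 703 RPM with drug at 40 mM. The part of these markers in the results below was not tested. In bulk RNA of this kind, fewer cells expressing a gene and less RNA per cell cannot be told apart.

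The 10 genes covered a wide range of levels. Per kilobase of annotated exon (GENCODE v29), ATF4 was the highest in untreated cells at 2 mM, at 76.1 RPM per kb, followed by PCK2 at 41.3, ATF5 at 19.7, PPP1R15A at 16.7, TRIB3 at 13.7, CEBPB at 8.19, DDIT3 at 6.10, CHAC1 at 3.99, ATF3 at 2.05 and ASNS at 1.47 RPM per kb. On the RPM scale ATF4 stood at the 91.6th percentile of the tested genes and PCK2 at the 85.1st. ATF3 stood at the 23.6th and ASNS at the 13.6th percentile. ASNS, which encodes the enzyme that makes asparagine with glutamine as the nitrogen donor, was the gene nearest to 1 RPM. It rested on 45 to 100 reads per library, so that counting error alone gave a coefficient of variation of 14.9% in its shallowest library, against 9.49% for ATF3 and 1.60% for ATF4.

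The order depends in part on how reads shared between genes were counted, which the sources used here do not give. In GENCODE v29, 1985 of the 2491 exon bases of ASNS also belong to a longer transcript on the same strand (AC079781.5, CZ1P-ASNS in RefSeq), which was not analysed here, so the level of ASNS is uncertain. ATF5 shares 563 of 2575 exon bases with NUP62 on the opposite strand, CEBPB shares 231 of 1956 with CEBPB-AS1, and DDIT3 shares 62 of 1307 with the methionyl-tRNA synthetase gene MARS1. The strand setting of the counting is not given either, so reads in those stretches cannot be assigned. ATF4, ATF3, TRIB3, PPP1R15A, CHAC1 and PCK2 share no exon base with another gene in that annotation.

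**Figure D1:**
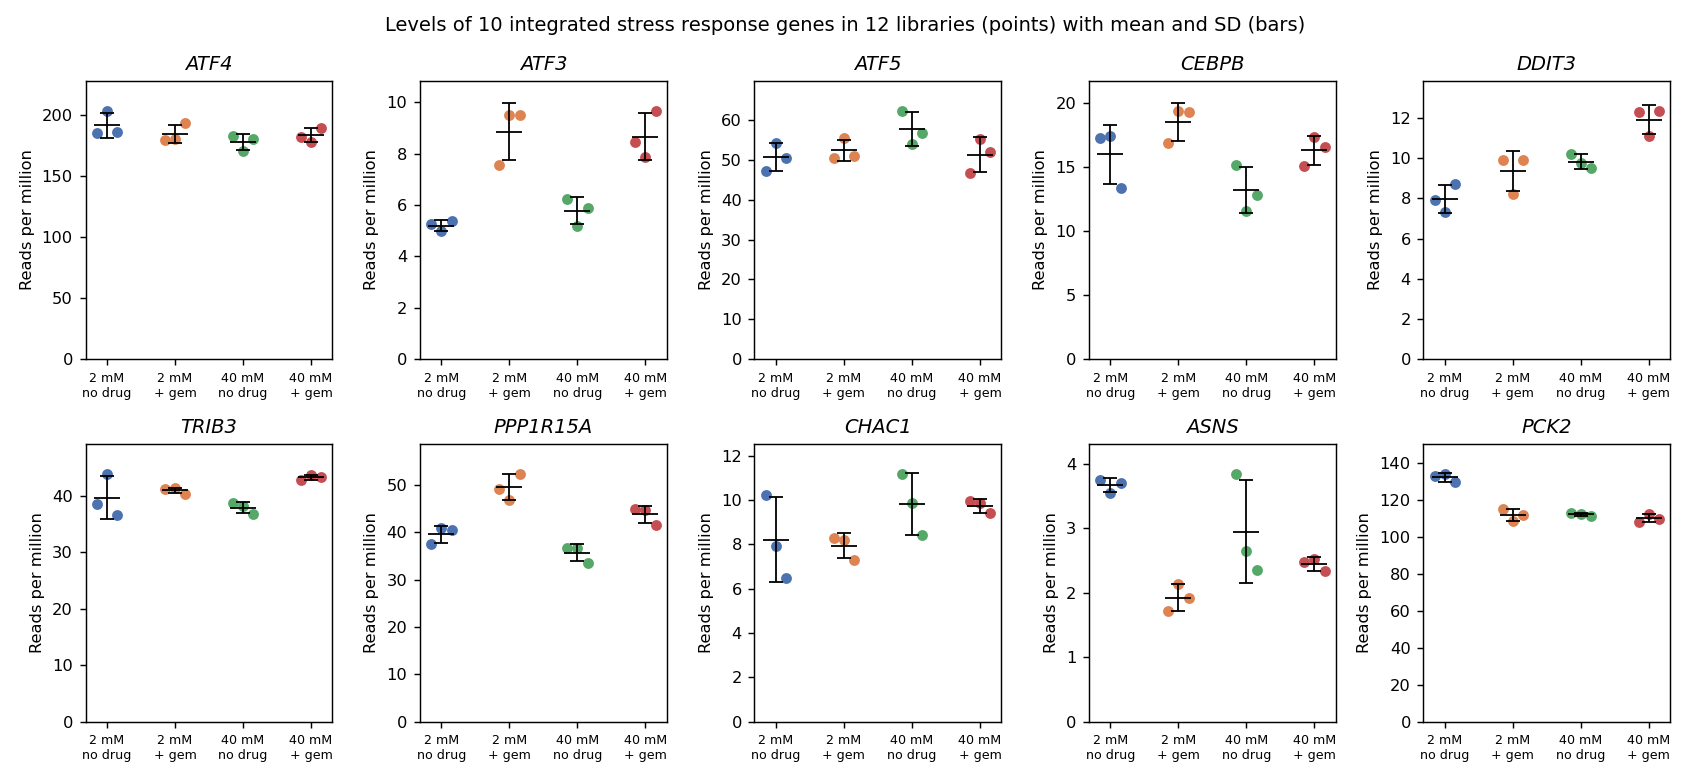
Levels of the 10 genes in RPM (vertical axes, each starting at 0) in the 4 groups, with 1 point per library and bars for the mean and SD of 3 libraries. ATF3 and PPP1R15A are higher in both treated groups, ASNS is lowest in treated cells at 2 mM (1.72 to 2.14 RPM), and PCK2 is high in untreated cells at 2 mM alone (129 to 134 RPM).

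Promoter stretches are shown for the 4 genes whose start-site window held a motif of the pathway. RefSeq windows (GRCh38.p14) of 250 bases before to 50 after a transcription start were searched on both strands in 19 windows of the 10 genes. The core of the C/EBP-ATF response element, the composite site bound by ATF4 with a C/EBP partner, was searched as TGATGNAA and was found in windows of ASNS, ATF3 and CHAC1. It was present in 3.62% of all 35116 RefSeq windows and in 2.04% of the 14291 windows of tested genes. These shares, and those below, are of windows and not of genes, and the 10 genes have 19 windows. The cAMP response element TGACGTCA, bound by CREB and ATF factors, was found in a window of PPP1R15A and was present in 1.85% of all windows and 2.84% of those of tested genes. The endoplasmic reticulum stress element bound by ATF6 with NF-Y, 19 letters long, matched no window of the 10 genes and 0.08% of all windows. Each sequence reads 5′ to 3′ on the strand of the gene, with the motif in capitals, and a match describes the letters alone. ASNS (chr7:97872423-97872522, minus strand, motif at positions -68 to -61 from the start), ATF3 (chr1:212565170-212565269, plus strand, -191 to -184 from an upstream start), CHAC1 (chr15:40953221-40953320, plus strand, -209 to -202, motif on the other strand) and PPP1R15A (chr19:48872317-48872416, plus strand, -58 to -51) read:
ASNS: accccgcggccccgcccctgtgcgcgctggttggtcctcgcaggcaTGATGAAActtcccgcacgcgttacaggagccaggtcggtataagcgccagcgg
ATF3: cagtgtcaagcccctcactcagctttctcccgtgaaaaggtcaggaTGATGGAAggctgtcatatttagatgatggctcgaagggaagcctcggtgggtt
CHAC1: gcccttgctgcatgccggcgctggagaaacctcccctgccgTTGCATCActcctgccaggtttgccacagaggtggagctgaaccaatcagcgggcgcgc
PPP1R15A: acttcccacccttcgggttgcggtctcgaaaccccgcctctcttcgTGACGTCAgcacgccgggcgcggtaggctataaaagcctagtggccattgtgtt

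With gemcitabine at 2 mM glutamine, these genes were called in both directions, as were all tested genes. ATF3 and PPP1R15A rose, ASNS and PCK2 fell, and the other 6 did not pass the test (limma, adjusted p under 0.05 over all tested genes). That is 4 of 10, or 40%, beside 34.6% of all tested genes (17.5% higher and 17.1% lower). This share lies near that of all tested genes. At 40 mM, ATF3, CEBPB, TRIB3 and PPP1R15A rose and ATF5 fell, which is 5 of 10, or 50%, beside 30.3% of all tested genes (14.1% higher and 16.2% lower). The median log2 difference of the 10 genes was 0.05 at 2 mM and 0.12 at 40 mM, beside 0.00 and -0.01 for all tested genes. With plain RPM, without the scaling between libraries, 62.9% of all genes called at 40 mM were higher, against 46.6% with it.

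Raising glutamine from 2 to 40 mM moved fewer of the 10 than the drug did, as it moved fewer of all tested genes. Without drug, ATF5 rose and PCK2 fell, which is 2 of 10, or 20%, beside 17.5% of all tested genes (8.41% higher and 9.12% lower). In treated cells DDIT3 rose and PPP1R15A fell, again 20%, beside 21.6% of all tested genes (8.62% higher and 13% lower). Both shares lie near those of all tested genes. The median log2 difference of the 10 genes was -0.08 without drug and -0.01 with it, beside 0.00 for all tested genes in both. Under plain RPM the higher share of all calls was 61.2% in place of 48.0% without drug and 68.2% in place of 39.9% with drug, and under quantile normalization it was 50.1% with drug.

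For the difference between the drug responses at 40 and 2 mM (the interaction), PCK2 alone of the 10 passed, 10% of them, beside 2.2% of all tested genes (0.727% higher and 1.47% lower). Of the genes called for it, 33.1% were higher, against 58.9% under plain RPM and 54.7% under quantile normalization. The glutamine comparison without drug and the drug comparison at 2 mM share the untreated libraries at 2 mM. The other pairs of comparisons that meet in a group share its libraries likewise, so values are set side by side below and not read as independent.

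**Figure D2:**
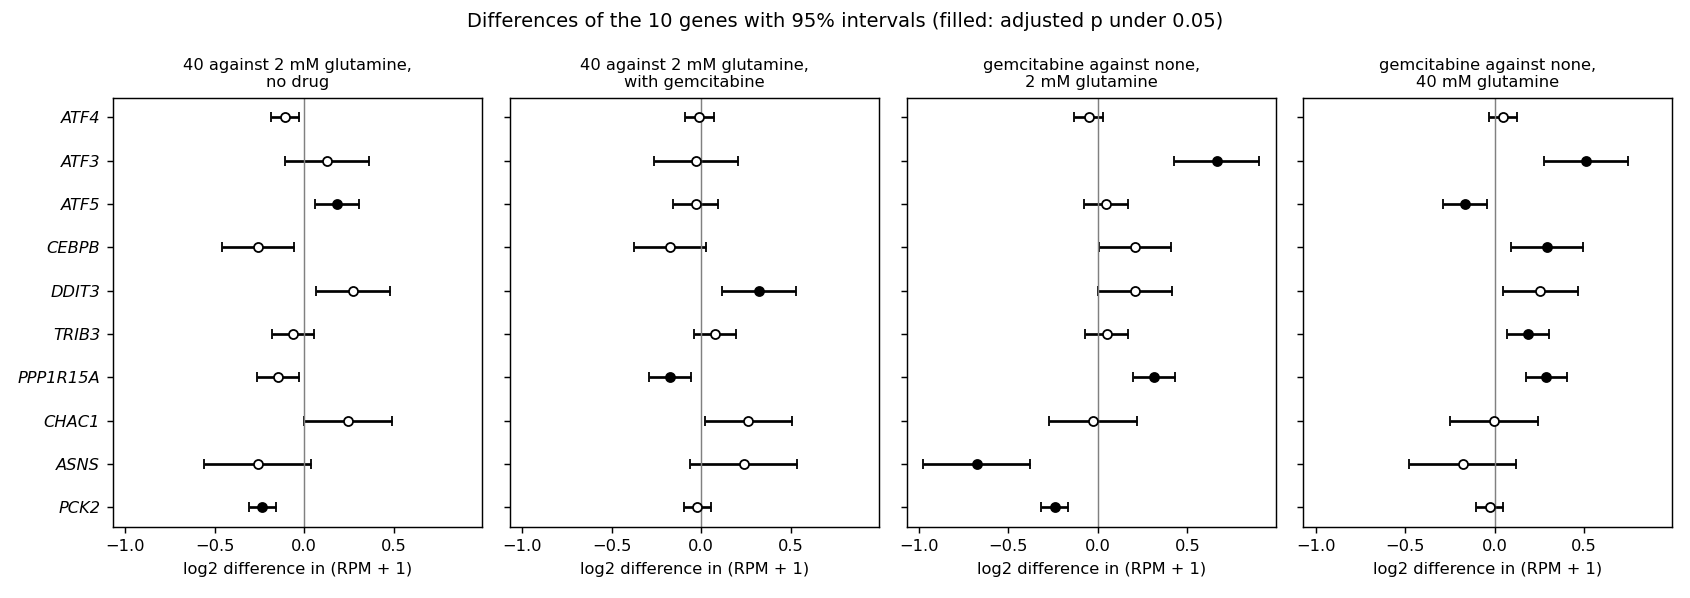
Log2 difference in RPM + 1 for each of the 10 genes (horizontal axes) in the 4 comparisons, with 95% intervals from limma and filled points for adjusted p under 0.05. Filled points lie on both sides of 0 in the first 3 panels and, in the fourth, ATF5 alone is filled on the left.

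The transcription factors come first. ATF4, the central factor of the pathway, was measured at 185, 203 and 186 RPM in untreated cells at 2 mM, 180, 180 and 193 RPM in treated cells at 2 mM, 183, 170 and 180 RPM in untreated cells at 40 mM and 182, 178 and 189 RPM in treated cells at 40 mM. The groups overlapped, except that the 3 untreated libraries at 40 mM all lay below the 3 untreated libraries at 2 mM. ATF4 passed the test in no comparison. The drug differences were -0.05 at 2 mM (95% interval -0.13 to 0.03) and 0.05 at 40 mM (-0.03 to 0.12) on the log2(RPM + 1) scale, on which all differences below are given. The glutamine difference without drug was -0.11 ± 0.04 (SE, adjusted p = 0.0529, limma) for a difference in mean level of -7.21%. It passed with a stricter filter of 5 RPM (adjusted p = 0.0498, limma) and without replicate 1 or 3 of the untreated 2 mM group (0.0375 and 0.0406) or replicate 1 of the untreated 40 mM group (0.0359). In treated cells the glutamine difference was -0.01 (-0.09 to 0.07).

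ATF3, a stress-induced factor that often acts as a repressor, showed the largest rise of the 10. Its level was 5.26, 4.97 and 5.37 RPM without drug and 7.57, 9.52 and 9.50 RPM with drug at 2 mM. At 40 mM it was 6.26, 5.20 and 5.90 RPM without and 8.47, 7.87 and 9.67 RPM with drug. Every treated library lay above every untreated one at both glutamine levels. The mean was 1.70-fold higher with drug at 2 mM, a log2 difference of 0.66 ± 0.12 (SE, adjusted p = 2.8e-05, limma). At 40 mM it was 49.8% higher, a log2 difference of 0.51 ± 0.12 (SE, adjusted p = 0.000854, limma). Both held in all 20 alternatives, with ranges of 0.61 to 0.76 and 0.44 to 0.58. The responses at the 2 glutamine levels differed by -0.15 (95% interval -0.49 to 0.18), and glutamine itself gave 0.13 (-0.11 to 0.36) without and -0.03 (-0.26 to 0.21) with drug.

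ATF5, a relative of ATF4 with similar translational control, was highest in untreated cells at 40 mM. It stood at 47.2, 54.3 and 50.5 RPM in untreated and 50.5, 55.5 and 51.1 RPM in treated cells at 2 mM, and at 62.3, 54.0 and 56.7 RPM in untreated and 46.6, 55.3 and 52.0 RPM in treated cells at 40 mM. All groups overlapped. Glutamine without drug raised it by 0.18 ± 0.06 (SE, adjusted p = 0.0330, limma). At 40 mM it fell by 0.17 with drug (SE 0.06, adjusted p = 0.0342, limma). Both calls were lost when single libraries were left out, and they share the untreated 40 mM group. The first was lost without replicate 1 or 3 of untreated 2 mM (adjusted p = 0.181 and 0.0657, limma) and without replicate 1 or 3 of untreated 40 mM (0.188 and 0.0622). The second was lost without replicate 1 or 3 of untreated 40 mM (0.215 and 0.0568, limma), without replicate 1 or 3 of treated 40 mM (0.258 and 0.0533), and under quantile normalization (0.0562) or plain RPM (0.119). ATF5 gave 0.05 with drug at 2 mM (95% interval -0.08 to 0.17) and -0.03 with glutamine in treated cells (-0.15 to 0.09).

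CEBPB, a leucine zipper factor of inflammation and differentiation that can pair with ATF4, was measured at 17.3, 17.4 and 13.4 RPM in untreated and 16.9, 19.4 and 19.3 RPM in treated cells at 2 mM. At 40 mM it was at 15.2, 11.6 and 12.9 RPM without and 15.1, 17.3 and 16.6 RPM with drug. The lowest treated library at 40 mM lay just under the highest untreated one. The rise with drug at 40 mM was 0.29 ± 0.10 (SE, adjusted p = 0.0222, limma), a mean 1.24-fold higher. That call was lost without replicate 2 or 3 of untreated 40 mM (adjusted p = 0.142 and 0.0646, limma) and without replicate 2 or 3 of treated 40 mM (0.100 and 0.0618). At 2 mM the drug difference was 0.21 ± 0.10 (SE, adjusted p = 0.106, limma). CEBPB was lower at 40 mM glutamine by values that did not pass, -0.26 ± 0.10 without drug (SE, adjusted p = 0.0652, limma) and -0.17 ± 0.10 with it (0.230). The first passed without replicate 3 of untreated 2 mM (-0.38, adjusted p = 0.00938, limma) and without replicate 1 of untreated 40 mM (-0.36, 0.0161).

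DDIT3 encodes CHOP, a factor of the late stress response linked to cell death. It was at 7.90, 7.30 and 8.71 RPM in untreated and 9.91, 8.22 and 9.93 RPM in treated cells at 2 mM, and at 10.2, 9.74 and 9.50 RPM in untreated and 12.3, 11.1 and 12.4 RPM in treated cells at 40 mM. Libraries at 40 mM lay above those at 2 mM without overlap, both with and without drug. In treated cells DDIT3 rose with glutamine by 0.32 ± 0.10 (SE, adjusted p = 0.0207, limma), a mean 1.27-fold higher. This was lost without replicate 2 of treated 2 mM (0.24, adjusted p = 0.142, limma) or without replicate 1 or 3 of treated 40 mM (0.0744 and 0.0706). The other DDIT3 differences were positive and did not pass. Glutamine without drug gave 0.27 ± 0.10 (SE, adjusted p = 0.0601, limma), which passed under plain RPM (0.0428) and without replicate 3 of untreated 2 mM (0.0447). Drug gave 0.21 ± 0.10 at 2 mM (SE, adjusted p = 0.118, limma) and 0.26 ± 0.10 at 40 mM (0.0561). The latter passed with the 5 RPM filter (0.0472), with voom weights (0.0424) and under plain RPM (0.0273). Of the 10 genes, DDIT3 alone had its lowest group mean without drug at 2 mM (7.97 RPM) and its highest with drug at 40 mM (11.9 RPM).

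Next are the feedback genes. PPP1R15A encodes GADD34, the stress-induced subunit that directs protein phosphatase 1 to eIF2-alpha and so restores translation. Its level was 37.5, 40.8 and 40.5 RPM without drug and 49.2, 46.9 and 52.4 RPM with drug at 2 mM. It was 36.6, 36.8 and 33.6 RPM without drug and 44.9, 44.8 and 41.7 RPM with drug at 40 mM. Treated libraries lay above untreated ones at both glutamine levels, and those at 40 mM lay below those at 2 mM both with and without drug. PPP1R15A was the only 1 of the 10 called in 3 of the 4 comparisons.

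The mean of PPP1R15A was 1.25-fold higher with drug at 2 mM, a log2 difference of 0.31 ± 0.06 (SE, adjusted p = 5.0e-05, limma), and 1.23-fold higher at 40 mM, 0.29 ± 0.06 (SE, adjusted p = 0.000178, limma). Both rises held in all 20 alternatives. In treated cells it fell with glutamine, with a difference in mean level of -11.6% and a log2 difference of -0.17 ± 0.06 (SE, adjusted p = 0.0269, limma). That fall was lost under plain RPM (-0.12, adjusted p = 0.125, limma), without replicate 1 or 3 of treated 2 mM (0.0630 and 0.169) and without replicate 3 of treated 40 mM (0.130). Without drug the glutamine difference was -0.15 ± 0.06 (SE, adjusted p = 0.0719, limma), and it passed without replicate 1 of untreated 2 mM (0.0453). The drug responses at the 2 glutamine levels differed by -0.03 (95% interval -0.19 to 0.14).

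TRIB3, a pseudokinase that ATF4 and CHOP induce and that restrains both, was measured at 38.4, 43.9 and 36.6 RPM in untreated and 41.1, 41.3 and 40.3 RPM in treated cells at 2 mM. At 40 mM it was at 38.7, 38.1 and 36.8 RPM without and 42.8, 43.6 and 43.2 RPM with drug. At 40 mM the treated libraries all lay above the untreated ones, while at 2 mM the untreated libraries spanned the treated ones. The rise with drug at 40 mM was 0.19 ± 0.06 (SE, adjusted p = 0.0129, limma), a mean 1.14-fold higher, and it was lost without replicate 3 of untreated 40 mM (0.0556). At 2 mM the drug gave 0.05 (95% interval -0.07 to 0.17). The difference between the responses was 0.14 ± 0.08 (SE, adjusted p = 0.428, limma), so the rise at 40 mM was not shown to be larger.

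The metabolic genes included both falls seen with drug at 2 mM. CHAC1, which degrades glutathione and is induced downstream of ATF4, was at 10.2, 7.93 and 6.48 RPM in untreated and 8.30, 8.22 and 7.31 RPM in treated cells at 2 mM, and at 11.2, 9.86 and 8.43 RPM in untreated and 9.95, 9.85 and 9.40 RPM in treated cells at 40 mM. Untreated groups spread widely and overlapped, while treated libraries at 40 mM lay above treated libraries at 2 mM. CHAC1 passed in no comparison. Glutamine gave 0.24 ± 0.12 without drug (SE, adjusted p = 0.165, limma) and 0.26 ± 0.12 with it (0.118), and the former passed without replicate 1 of untreated 2 mM (0.40, adjusted p = 0.0273, limma). Drug differences were -0.03 at 2 mM (95% interval -0.27 to 0.22) and -0.01 at 40 mM (-0.25 to 0.24).

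ASNS was measured at 3.75, 3.54 and 3.71 RPM without drug and 1.72, 2.14 and 1.91 RPM with drug at 2 mM, on 79 to 100 and 45 to 62 reads. At 40 mM it was at 3.85, 2.64 and 2.35 RPM without and 2.48, 2.53 and 2.33 RPM with drug. All 3 treated libraries at 2 mM lay below every other library, and at 40 mM the untreated replicate 1 stood apart from the other 2 of its group. With drug at 2 mM ASNS fell by 0.68 (SE 0.15, adjusted p = 0.000466, limma), a mean 1.90-fold lower, and the log2(RPM + 1) scale understates a change at this level: with voom weights on the recovered reads the difference was -0.94. The fall held in all 19 alternatives that tested ASNS, from -0.94 to -0.63; with the 5 RPM filter ASNS was not tested. Since ASNS shares most of its exon bases with a longer transcript, the fall cannot be assigned to ASNS alone.

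At 40 mM the drug difference of ASNS was -0.18 ± 0.15 (SE, adjusted p = 0.395, limma). Glutamine gave -0.26 ± 0.15 without drug (SE, adjusted p = 0.234, limma) and 0.24 ± 0.15 with drug (0.266), where the 40 mM libraries lay above the 2 mM ones without overlap. The difference between the drug responses was 0.50 ± 0.21 (SE, adjusted p = 0.227, limma), so ASNS was not shown to respond differently at the 2 glutamine levels.

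PCK2, the mitochondrial phosphoenolpyruvate carboxykinase, which draws on carbon that glutamine supplies to the citric acid cycle, was at 133, 134 and 129 RPM in untreated cells at 2 mM. It was at 115, 108 and 112 RPM in treated cells at 2 mM, 113, 113 and 111 RPM in untreated cells at 40 mM and 108, 112 and 110 RPM in treated cells at 40 mM. Untreated libraries at 2 mM lay above all 9 others, and the other 3 groups overlapped. It fell with drug at 2 mM, by a mean difference of -15.5% and a log2 difference of -0.24 ± 0.04 (SE, adjusted p = 2.9e-06, limma). It also fell with 40 mM glutamine without drug, by a mean difference of -15.1% and a log2 difference of -0.23 ± 0.04 (SE, adjusted p = 1.8e-05, limma). Both comparisons rest on the same high group. The 2 falls held in all 20 alternatives, with ranges of -0.26 to -0.22 and -0.25 to -0.21.

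At 40 mM the drug difference of PCK2 was -0.03 (95% interval -0.10 to 0.05), and glutamine in treated cells gave -0.02 (-0.09 to 0.05). The difference between the drug responses was 0.21 ± 0.05 (SE, adjusted p = 0.0196, limma). It was lost without replicate 2 of treated 2 mM (0.19, adjusted p = 0.0812, limma), replicate 3 of untreated 40 mM (0.21, 0.0524) or replicate 2 of treated 40 mM (0.20, 0.0646). PCK2 varied least of the 10 within groups, with a pooled SD of 0.03 on the log2 scale, against 0.18 for CHAC1 and 0.15 for ASNS.

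**Figure D3:**
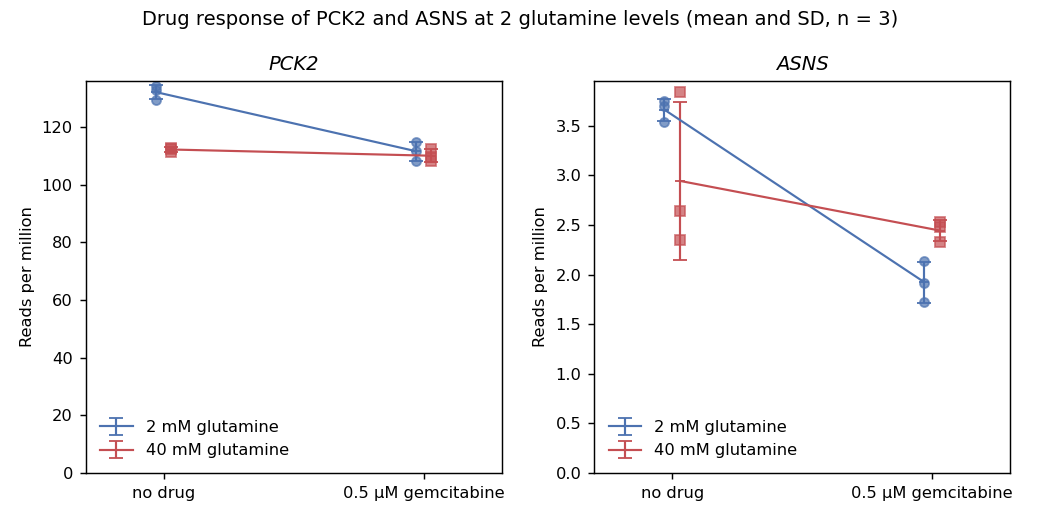
Levels of PCK2 (left) and ASNS (right) in RPM, from 0, without and with 0.5 µM gemcitabine, at 2 mM (circles) and 40 mM glutamine (squares), with lines joining means and bars for the SD of 3 libraries. PCK2 goes from 132 to 112 RPM at 2 mM and from 112 to 110 RPM at 40 mM, and ASNS goes from 3.66 to 1.92 RPM and from 2.95 to 2.44 RPM.

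Calls of the genes with a motif in a searched window are set side by side, and no link between motif and response was tested. Sites outside the windows, 250 bases before to 50 after a start, were not searched. Of the 3 genes whose window held the C/EBP-ATF core, ATF3 rose with drug at both glutamine levels, ASNS fell with drug at 2 mM, and CHAC1 passed in no comparison. PPP1R15A, with the cAMP response element, rose with drug at both levels.

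Genes with profiles nearest to a member were found by the root mean square (RMS) difference of centred log2 values over the 12 libraries, among about 6395 genes at or above the median level, as a description only. ATF4, whose own RMS about its mean was 0.06, was nearest to PSMA7 (0.04), NAXE (0.04) and MTCH1 (0.04). ATF3, with an own RMS of 0.31, was nearest to POLA2 (0.10), KCNK5 (0.10) and SHCBP1 (0.10). ASNS (own RMS 0.28) was nearest to ARRDC3 (0.12), ZBTB41 (0.14) and TRIM4 (0.14), and PPP1R15A (own RMS 0.18) to TXNRD1 (0.06), BIRC5 (0.06) and PXN (0.06). No other of the 10 genes was among the nearest 3 of ATF4, ATF3, ASNS or PPP1R15A.

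Counts in the lists that follow stand beside these shares of all tested genes. With drug, 17.5% were higher and 17.1% lower at 2 mM, and 14.1% and 16.2% at 40 mM. With glutamine, 8.41% were higher and 9.12% lower without drug, and 8.62% and 13% in treated cells. No list was tested as a set. Upstream of ATF4, genes of the sensors and the eIF2-alpha cycle were called in both directions with drug, as were all tested genes. Of 21 tested genes, 4 rose and 5 fell with drug at 2 mM and 2 rose and 4 fell at 40 mM (6 and 3 under plain RPM). With glutamine, none rose in either comparison, and 3 fell without and 6 with drug (under plain RPM, 3 rose and 3 fell with drug). EIF2AK2 (PKR) rose with drug by 0.12 ± 0.04 and 0.16 ± 0.04 (SE), at 2 and 40 mM. EIF2AK4 (GCN2) fell by 0.12 and 0.16, with the same SE. EIF2AK3 (PERK) passed in no comparison, and EIF2AK1 (HRI) fell by 0.10 with glutamine in treated cells. The fall of EIF2AK1 was lost in 5 of 20 alternatives, namely quantile normalization (-0.03, adjusted p = 0.464, limma), plain RPM, and without replicate 2 or 3 of treated 2 mM or replicate 3 of treated 40 mM. The rise of EIF2AK2 at 2 mM was lost without replicate 2 of treated 2 mM (adjusted p = 0.0731, limma). PPP1R15B, the constitutive counterpart of PPP1R15A, rose with drug at 2 mM by 0.12 ± 0.04, a call lost without replicate 2 of untreated 2 mM or replicate 1 or 3 of treated 2 mM (adjusted p up to 0.130, limma). IMPACT, an inhibitor of GCN2 activation, fell with drug by 0.30 and 0.26, and EIF2S3, a subunit of eIF2, fell in all 4 comparisons, by 0.28 and 0.25 with glutamine and by 0.16 and 0.13 with drug. EIF2S2, another subunit, and PPP1CC, a phosphatase 1 catalytic subunit, fell with glutamine by 0.16 to 0.17 with and without drug.

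Beside ATF3 and CEBPB, other leucine zipper factors that include partners of ATF4 rose with drug in 5 of 20 tested genes at 2 mM (3 fell) and 8 of 20 at 40 mM (1 fell). FOS rose by 0.81 and 1.14, FOSL1 by 0.53 and 0.48, JUNB by 0.20 and 0.50, and JUN by 0.23 at 40 mM. The level of FOS was low, with group means of 1.68 RPM without and 3.67 RPM with drug at 2 mM, and 1.49 and 4.48 RPM at 40 mM. The rise of JUNB at 2 mM was lost without replicate 1 of untreated 2 mM or replicate 1 or 3 of treated 2 mM (adjusted p up to 0.0763, limma). With glutamine, 3 rose and 5 fell without drug, FOSL1 (-0.26), JUNB (-0.41) and JUN (-0.13) among them, and 4 rose and 1 fell in treated cells (9 and 1 under plain RPM).

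The other genes that ATF4 is known to induce for amino acid supply were called in both directions with drug. So were all tested genes (17.5% higher and 17.1% lower at 2 mM, 14.1% and 16.2% at 40 mM). Of 14 amino acid synthesis genes, 3 rose and 3 fell with drug at 2 mM and 4 rose and 3 fell at 40 mM, and with glutamine 2 rose without drug (4 under plain RPM) and 1 rose and 2 fell with it. PHGDH, the entry enzyme of serine synthesis, rose with drug by 0.25 and 0.14, and PYCR1, which makes proline, fell by 0.19 and 0.34. The rise of PHGDH at 40 mM was lost without replicate 3 of untreated or replicate 2 of treated 40 mM (adjusted p up to 0.0709, limma). GPT2, an alanine transaminase that uses glutamate, rose with drug at 2 mM by 0.22 and with glutamine without drug by 0.20, the same pair of comparisons, sharing the untreated 2 mM libraries, in which PCK2 fell. GOT1 rose by 0.25 with glutamine in treated cells.

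Of 10 amino acid transporters, 2 rose and 4 fell with drug at 2 mM and 1 rose and 4 fell at 40 mM. SLC38A2, a glutamine carrier that amino acid shortage induces, fell by 0.29 and 0.33, and SLC6A9, a glycine carrier, fell by 0.52 and 0.57. With glutamine 1 rose and 2 fell without drug and 1 rose and 3 fell with it, and SLC7A5, the large neutral amino acid exchanger, fell by 0.25 and 0.23. SLC1A5, a glutamine carrier, fell by 0.13 and 0.19 with glutamine. It rose by 0.10 with drug at 2 mM, a call lost in 1 of 20 alternatives (adjusted p up to 0.145, limma). SLC7A5 also fell with drug, by 0.14 and 0.12, the latter lost in 1 of 20 alternatives (adjusted p up to 0.0565, limma). SLC1A4 rose in all 4 comparisons, by 0.42 and 0.41 with glutamine and by 0.57 and 0.55 with drug. It was not followed through the alternatives.

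Of 12 aminoacyl-tRNA synthetases, 4 rose and 5 fell with drug at 2 mM and 4 rose and 2 fell at 40 mM. With glutamine, 1 rose and 4 fell without drug (1 and 1 under plain RPM) and 2 rose and 1 fell with it (5 and 1). WARS1 rose in all 4 comparisons, by 0.36 and 0.34 with glutamine and 0.19 and 0.17 with drug, whereas EPRS1 fell with drug by 0.18 and 0.15. AARS1 and LARS1, for alanine and leucine, rose with drug by 0.08 each at 2 mM and by 0.16 and 0.18 at 40 mM. At 2 mM both calls were lost without replicate 1 or 3 of either group, and that of LARS1 also without replicate 2 of the untreated group (adjusted p up to 0.0682 for AARS1 and 0.130 for LARS1, limma).

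Of 20 tested stress and growth brake genes, 7 rose and 2 fell with drug at 2 mM, and 7 rose and 1 fell at 40 mM. PMAIP1, which encodes the death protein NOXA, rose by 1.38 and 1.44 and CDKN1A, the p21 cell cycle inhibitor, by 0.84 and 1.16; both are also known targets of p53. DDIT4, an inhibitor of mTORC1 signalling, fell by 0.78 and 0.73. ERO1A, an oxidase of the endoplasmic reticulum, rose by 0.35 and 0.12, the latter lost without replicate 2 or 3 of untreated 40 mM or replicate 1 or 3 of treated 40 mM (adjusted p up to 0.114, limma). With glutamine 2 rose and 3 fell without drug and 1 rose and 2 fell with it (4 and 0 under plain RPM).

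Genes of the other arms of the unfolded protein response, read by ATF6 and XBP1, were called mostly as higher, with 11 of 19 up and 2 down with drug at 2 mM and 7 up and 0 down at 40 mM. With glutamine 9 rose and 1 fell without drug and 11 rose and 1 fell with it, with medians of 0.13 and 0.16, while those of the 10 ATF4 pathway genes were -0.08 and -0.01. HSPA5, the chaperone BiP, rose in all 4 comparisons, by 0.30 and 0.23 with glutamine and 0.23 and 0.16 with drug, and CALR rose by 0.31 and 0.18 with glutamine. MANF rose with drug by 0.53 and 0.40, and SDF2L1 rose with drug at 2 mM by 0.54 and fell with glutamine in treated cells by 0.42. No test of the difference between these 2 groups of genes was made. XBP1 and ATF6 are also among the leucine zipper factors above, so their calls are counted in both lists.

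**Figure D4:**
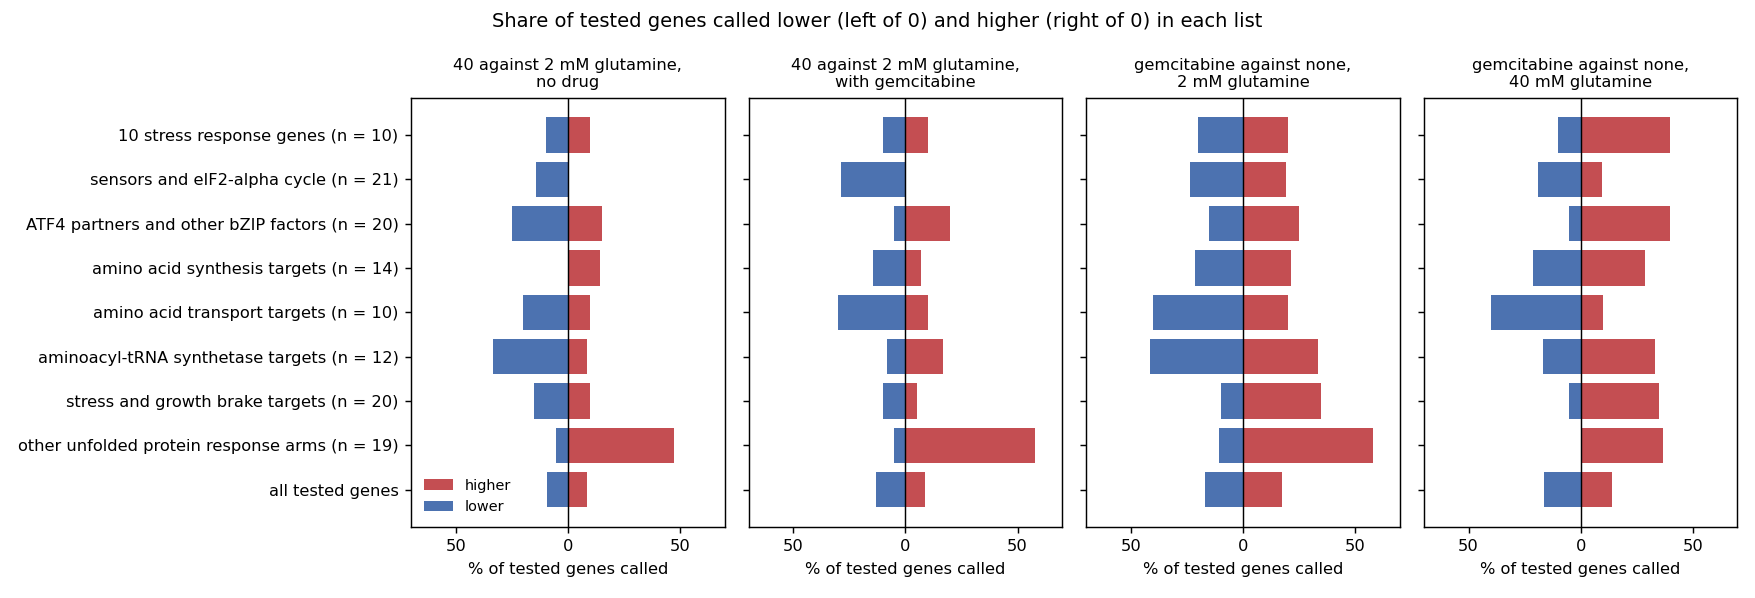
Share of tested genes called lower (blue, left of 0) and higher (red, right of 0) in percent, for the 10 genes, 7 related lists and all 12789 tested genes, in the 4 comparisons. The 10 genes have equal shares in both directions in the first 3 panels and 40% higher against 10% lower with drug at 40 mM.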

How the data were processed

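Per the labels' protocols, total RNA was isolated on columns and the libraries were prepared commercially. The authors deposited 1 table of log2 values for 15090 genes and 12 libraries. The unit, log2 of reads per 1000000 (RPM) plus a pseudocount of 1, was worked out from the values: in every library 100% of the values gave whole reads within 0.05 read. The sources used here do not give the aligner, genome build, counting program or scaling method. Genes at 1 RPM or more in at least 3 of 12 libraries were tested (12789 genes). The log2 values were fitted with limma 3.58.1 in R 4.3.3, with 4 group means over 12 libraries, empirical Bayes with a mean-variance trend, two-sided tests and Benjamini-Hochberg adjustment over all tested genes, at 0.05 and for 5 comparisons. The script was tested on simulated data. P-values measure the spread between the 3 cultures of each group of a line, pooled over the 4 groups and moderated across genes. Each gene thus has 1 SE for the 4 pairwise comparisons, although spreads could differ between groups. The SD of ASNS was 0.79 RPM in untreated cells at 40 mM and 0.10 to 0.21 RPM in the other groups.

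Genes were named by rule: every member, the 4 eIF2-alpha kinases and PPP1R15B, up to 4 genes of each other list by smallest adjusted p, and the 3 nearest profiles of ATF4, ATF3, ASNS and any member called in at least 3 comparisons. SLC1A4 was named outside the rule, since it rose in all 4 comparisons. The members and lists were chosen with earlier results of these data known. Exon lengths and overlaps came from GENCODE v29 and promoters from RefSeq. Alternatives were no filter, a 5 RPM filter, a pseudocount of 0.25, voom weights on recovered reads, quantile normalization, plain RPM, the 2 compared groups alone, a replicate block and each library left out in turn. Beyond the voom weights on recovered reads, no count model was run.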

Additional observations from a re-analysis of the deposited data

Results flagged for a closer look

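The drug response of PCK2 differed between the glutamine levels: the log2 difference at 40 mM minus that at 2 mM was 0.21 (adjusted p = 0.0196, limma), with group means of 132 and 112 RPM at 2 mM and 112 and 110 RPM at 40 mM, without and with drug. The 3 untreated libraries at 2 mM were higher than the other 9. No other gene of the 10 passed this test. The call of PCK2 was lost in 3 of 19 alternatives (adjusted p up to 0.0812, limma). Among tested genes of the related lists, 2 of 20 leucine zipper factors were higher and 1 was lower. In each of 3 lists 1 gene was lower: of 14 amino acid synthesis, 20 stress and growth brake and 19 unfolded protein response genes. None passed in the other lists, beside 2.2% of all tested genes. In groups of 3, single libraries were not tested for standing apart.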

How the results depend on the processing

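Of 20 alternatives, none reversed a call of the 10 genes. Calls held under every alternative run for ATF3 and PPP1R15A with drug at both glutamine levels, for ASNS with drug at 2 mM and for PCK2 with drug at 2 mM and with glutamine without drug. Calls for ATF5, CEBPB, DDIT3, TRIB3, PPP1R15A (glutamine in treated cells) and PCK2 (interaction) were each lost in 1 to 6 alternatives. With 1 library left out, the number of the 10 genes called was 1 to 4 for glutamine without drug, 0 to 2 for glutamine with drug, 2 to 5 for drug at 40 mM and 0 to 1 for the interaction, for which 155 to 366 of all genes were called. Under plain RPM 1 of the 10 was called for glutamine with drug. None of the values that changed sign was of a called difference. Under plain RPM these were 0.00233 for EIF2AK4 (glutamine without drug), 0.0451 for ATF4, 0.0224 for ATF3, 0.0225 for ATF5, 0.0336 for PCK2, 0.0335 for EIF2AK2 and 0.0177 for PPP1R15B (glutamine with drug), 0.0324 for CHAC1 and 0.0134 for PCK2 (drug at 40 mM) and 0.00664 for PPP1R15A (interaction). Quantile normalization gave 0.0435 for ATF4 and 0.0358 for EIF2AK2 (glutamine with drug) and -0.0138 for CHAC1 (interaction), and voom gave 0.0047 for CHAC1 (drug at 40 mM). With 1 library left out, values for glutamine without drug ranged from -0.116 to 0.0127 for TRIB3 and from -0.0151 to 0.0263 for EIF2AK1. For glutamine with drug they ranged from -0.0330 to 0.0247 for ATF4, from -0.124 to 0.0339 for ATF3, from -0.0857 to 0.0352 for ATF5, from -0.0418 to 0.000736 for PCK2 and from -0.0451 to 0.0160 for EIF2AK2. For drug at 2 mM the ranges were -0.00232 to 0.0968 for ATF5, -0.0065 to 0.122 for TRIB3, -0.166 to 0.128 for CHAC1 and -0.160 to 0.0329 for EIF2AK3. For drug at 40 mM they were -0.101 to 0.0844 for CHAC1, -0.0460 to 0.120 for EIF2AK3 and -0.0170 to 0.0307 for PPP1R15B, and for the interaction -0.0317 to 0.104 for DDIT3, -0.0682 to 0.0148 for PPP1R15A and -0.133 to 0.161 for CHAC1. The cause of these changes was not tested. Replicate numbers did not pair the libraries (deviations of same-numbered libraries correlated from -0.077 to 0.048), and with a replicate block 2, 2, 4, 5 and 1 of the 10 genes were called in the 5 comparisons, the same counts as without it, and 306 genes for the interaction against 281. Depth limits ASNS, ATF3, CHAC1 and DDIT3 most, with 45 to 322 reads per library.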
